A study of Mus musculus with 12 samples.

Results

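The genes described here encode the high-affinity IgE receptor FcϵRI and the proteins that carry its signal over the first steps inside a mast cell. They were chosen by symbol, with earlier results of these data known. They comprise 10 of the 16234 genes in the deposited table of read counts: the receptor chains *Fcer1a*, *Ms4a2* and *Fcer1g*, the kinases *Lyn* and *Syk*, the adaptors *Lat*, *Lat2* and *Gab2*, and the phospholipases *Plcg1* and *Plcg2*. All 10 passed the filter on low counts and were tested among 12208 genes, and the lowest count of any of them in a library was 2897 (*Syk*). The RNA came from bone marrow-derived mast cells (BMMCs), which are mast cells grown from mouse bone marrow, here for 4 to 8 weeks in IL-3 and SCF at 10 ng/ml. The mice were C57BL/6N animals of both sexes, 6 to 12 weeks old, with a conventional, body-wide knockout of *Elk4*, a transcription factor of the ETS family. The 12 libraries form 6 groups of 2 by *Elk4* genotype label, which is WT for wild type, HZ for heterozygous and KO for knockout, and by whether the cells were left unstimulated or were stimulated. Stimulated cells took up anti-DNP IgE at 0.5 µg/ml overnight and then received the antigen DNP-HSA at 100 ng/ml for 1 h at 37°C. Whether the unstimulated cells also received IgE is not given in the sources used here. The effects of overnight IgE and of 1 h of antigen therefore cannot be told apart, and stimulation here means both. The labels do not say whether the 2 replicates of a group are separate animals or cultures, so the p-values measure only the spread between these libraries, which may be technical.

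FcϵRI is built from an alpha chain that binds the Fc part of IgE, a beta chain that amplifies the signal, and a pair of gamma chains that carry the tyrosine motifs through which most of the signal passes. When antigen cross-links bound IgE, the kinase LYN phosphorylates these motifs, SYK docks on them, and SYK then phosphorylates membrane adaptors on which the phospholipases C gamma are recruited. The phospholipases release calcium and activate protein kinase C, and the mast cell degranulates and starts to make cytokines.

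Each library held between 29697958 and 35531667 counts on genes, of which the 10 genes took 0.741% to 1.03%. Mast cell markers were abundant in every library: the 10 of 11 listed markers found in the table summed to between 48688 and 60027 CPM (counts relative to library size, scaled by TMM), and *Cpa3*, the mast cell carboxypeptidase, was the most abundant of them. The lists for other cells were low for neutrophils, where *Mpo* led a sum of at most 0.269 CPM and *Ltf* was at 0 in all libraries, for lymphocytes, led by *Ncr1* at a sum of at most 0.537 CPM, for dendritic cells, led by *Itgax* at a sum of at most 7.61 CPM, and for eosinophils, led by *Il5ra* at a sum of at most 6.40 CPM. Higher sums were found for monocytes and macrophages (102 to 170.2 CPM, led by *Cx3cr1*), basophils (465 to 674 CPM, led by *Cd200r3*) and the erythroid and megakaryocyte list (1512 to 2421 CPM, led by *Itga2b*). The counts on *Elk4* itself in unstimulated cells were 2426 and 2740 under the label WT, 3238 and 2837 under HZ, and 2613 and 2253 under KO. Scaled by TMM, these were 73.2 and 78.3 CPM in WT, 93.2 and 86.0 CPM in HZ and 69.7 and 63.5 CPM in KO. Against WT, the log2 difference of *Elk4* was -0.19 in KO (SE 0.06, edgeR adjusted p = 0.00872) and 0.24 in HZ (SE 0.06, edgeR adjusted p = 0.000484). Reads on *Elk4* were therefore present in the libraries labelled KO, and since a count over a whole gene does not show which part of it was read, the genotypes are given here as labelled. For the protein, the study reported the deletion by western blot in BMMCs of each genotype.

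To show what lies before the 3 receptor chain genes, which carry the binding and the signalling parts of FcϵRI, the 250 bases before their start sites were read from RefSeq, in build GRCm38.p6, which is not the build GRCm39 that the submitters' processing notes name. Of the 10 genes, 7 had an entry in the table used. The sequences run 5′ to 3′ toward the gene, with capitals on matches to 3 motifs that were searched on both strands: the ETS core CCGGAA, which is the kind of site that ELK4 binds, the site AGATAA of GATA factors, and the M-box TCATGTG of MITF.
*Fcer1a*, chr1:173227230-173227479, minus strand: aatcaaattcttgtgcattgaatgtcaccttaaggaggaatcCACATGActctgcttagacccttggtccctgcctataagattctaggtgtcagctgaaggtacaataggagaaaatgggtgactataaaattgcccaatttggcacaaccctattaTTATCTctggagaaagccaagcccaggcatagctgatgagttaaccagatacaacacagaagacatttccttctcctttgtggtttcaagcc
*Ms4a2*, chr19:11623720-11623969, minus strand: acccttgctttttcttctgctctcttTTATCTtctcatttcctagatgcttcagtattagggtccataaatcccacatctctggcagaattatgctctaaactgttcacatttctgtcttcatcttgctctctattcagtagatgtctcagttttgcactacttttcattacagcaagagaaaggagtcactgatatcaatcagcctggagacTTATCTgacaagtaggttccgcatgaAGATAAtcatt
*Fcer1g*, chr1:171234350-171234599, minus strand: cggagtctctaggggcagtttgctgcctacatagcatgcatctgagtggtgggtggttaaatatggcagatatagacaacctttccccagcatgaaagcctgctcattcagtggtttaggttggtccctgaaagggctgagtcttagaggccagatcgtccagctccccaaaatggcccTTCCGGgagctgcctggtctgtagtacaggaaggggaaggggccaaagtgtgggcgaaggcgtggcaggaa
The ETS core was found before *Fcer1g* alone among the 7, with the match 71 to 66 bases before the start, and it occurs in 12.03% of all 32851 such windows. The GATA site was found before *Fcer1a*, *Ms4a2* and *Plcg2*, once before *Fcer1a* and at 3 places before *Ms4a2*, and it occurs in 9.99% of windows. The M-box was found before *Fcer1a* and occurs in 3.25% of windows. These matches describe letters in the windows and are not evidence of binding.

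Per gene length, the alpha chain was by far the most abundant transcript of the set. In unstimulated WT libraries, the deposited FPKM value of *Fcer1a* (NCBI Gene 14125) was 4291 ± 33.9 (SD, n = 2), which placed it at rank 5 of all genes. The beta chain *Ms4a2* (14126) followed at 645 ± 17.8 FPKM (SD, n = 2) and the gamma chain *Fcer1g* (14127) at 528 ± 2.73 FPKM (SD, n = 2), so that the chain genes led the set. The adaptors *Lat2* (56743), the transmembrane protein also called NTAL, and *Lat* (16797), its better known relative, came next at 193 and 165 FPKM. *Plcg1* (18803) was at 85.9 FPKM, the docking protein *Gab2* (14389) at 53.6, *Lyn* (17096) at 45.1 and *Plcg2* (234779) at 31.3 and 32.8 FPKM in the 2 libraries. *Syk* (20963), the kinase on which the whole cascade depends, was lowest at 12.2 ± 0.204 FPKM (SD, n = 2) and ranked 4703 among all genes. No neighbours in this order overlapped between the WT libraries. *Ms4a2* and *Fcer1g* stood in the opposite order in each of the 3 stimulated groups, with *Fcer1g* at 494 FPKM and *Ms4a2* at 474 FPKM in stimulated WT libraries. *Lyn* lay above *Gab2* in unstimulated HZ libraries, and these neighbours overlapped in unstimulated KO libraries, where *Gab2* was at 45.0 and 44.3 FPKM and *Lyn* at 43.2 and 45.4 FPKM. The counted gene models differ in length from 658 bases for *Fcer1g* to 10889 bases for *Syk*, and FPKM divides by this length.

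**Figure D1:**
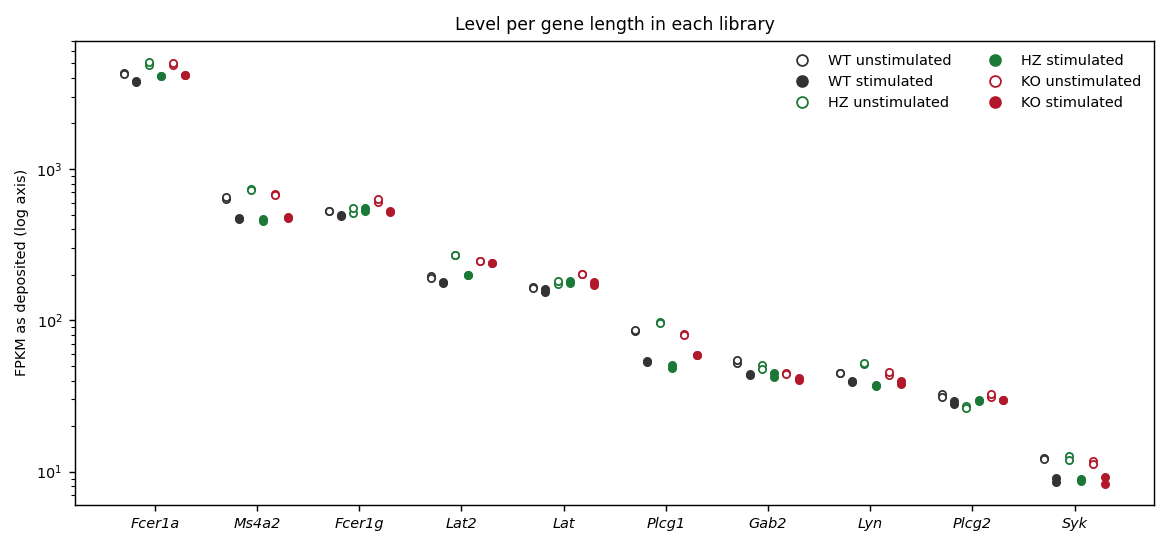
FPKM as deposited of each of the 10 genes (log axis) in each of the 12 libraries, with open points for unstimulated and filled points for stimulated libraries, coloured by genotype label. *Fcer1a* lies above all other genes in every library, from 3777 to 5112 FPKM, and *Syk* below them, from 8.33 to 12.8 FPKM.

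Most of these genes differed by small amounts between stimulated and unstimulated cells. In WT BMMCs, 9 of the 10 genes passed the test (edgeR's quasi-likelihood test, Benjamini-Hochberg adjusted p below 0.05), against 45.3% of all genes tested (22.4% higher and 22.9% lower), and none reached the 2-fold change that the study used as its threshold, which 6.77% of all genes did. The median size of the log2 change was 0.157 over the 10 genes and 0.227 over all genes tested. Relative to the median gene, 6 rose (*Fcer1a*, *Fcer1g*, *Lyn*, *Lat*, *Lat2* and *Plcg2*) and 3 fell (*Ms4a2*, *Syk* and *Plcg1*), but with libraries scaled by their totals instead of by TMM, none was higher and 9 were lower. The TMM factors ran from 1.08 to 1.12 before stimulation and from 0.902 to 0.924 after it, and on library totals the median gene itself moved by -0.32 in WT, -0.24 in HZ and -0.30 in KO on the log2 scale. *Ms4a2*, *Syk* and *Plcg1* were lower in stimulated WT cells on both scalings, and the changes of the other genes are given relative to the median gene.

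In HZ BMMCs, 9 of 10 genes passed on stimulation, against 64.4% of all genes (32.9% higher and 31.6% lower), with 3 higher (*Fcer1g*, *Lat* and *Plcg2*) and 6 lower, and on library totals 1 was higher and 7 were lower. In KO BMMCs, 7 of 10 passed, against 40.8% of all genes (20.4% higher and 20.5% lower), with 5 higher (*Lyn*, *Lat*, *Lat2*, *Plcg2* and *Gab2*) and 2 lower (*Ms4a2* and *Plcg1*), and on library totals none was higher and 8 were lower. *Plcg2* in HZ cells was the gene that was higher on both scalings. None of the 10 genes reached 2-fold in either genotype, against 14.3% of all genes in HZ and 6.61% in KO.

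**Figure D2:**
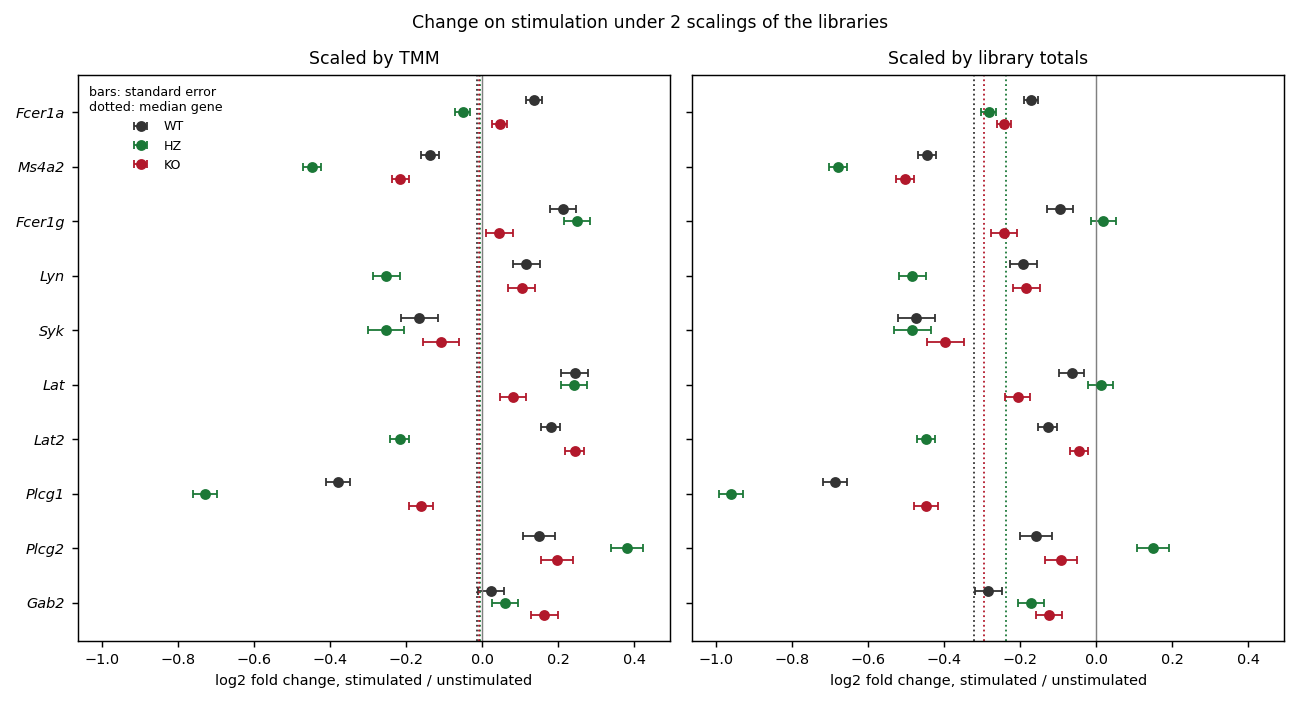
Log2 fold change on stimulation of each gene in WT, HZ and KO BMMCs (points, with bars for the standard error), with libraries scaled by TMM on the left and by their totals on the right; dotted lines mark the median gene of each genotype. On the left *Ms4a2*, *Syk* and *Plcg1* lie below 0 in all 3 genotypes, though the change of *Syk* in KO did not pass. On the right nearly all points lie below 0 together with the median gene at -0.32, -0.24 and -0.30.

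Among the receptor chains, *Fcer1a*, which binds IgE, was at 3976 and 3909 CPM in unstimulated WT libraries, 4654 and 4868 CPM in HZ and 4535 and 4713 CPM in KO. After stimulation it was at 4368 and 4298 CPM in WT, 4564 and 4628 CPM in HZ and 4786 and 4764 CPM in KO. The unstimulated WT libraries were thus lowest, and the 4 libraries labelled WT did not reach any labelled HZ or KO. In WT cells *Fcer1a* rose by a log2 fold change of 0.14 (SE 0.02, edgeR adjusted p = 2.58e-07) relative to the median gene, a direction that turns to -0.17 on library totals. In HZ cells it changed by -0.05 (SE 0.02, edgeR adjusted p = 0.027), a call that was lost without unstimulated HZ replicate 2 (adjusted p = 0.612) or stimulated HZ replicate 1 (adjusted p = 0.183). In KO cells its change of 0.05 did not pass (edgeR adjusted p = 0.0664) and turned to -0.24 on library totals (adjusted p = 6.96e-15). The rise passed with DESeq2 (adjusted p = 0.0358), DESeq2's size factors (0.0153), only the groups compared (0.0022) or no filter on low counts (0.0319), and without unstimulated KO replicate 2 (0.0135) or unstimulated HZ replicate 1 (0.0369).

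*Ms4a2*, the beta chain, was at 1598 and 1653 CPM in unstimulated WT libraries, 1927 and 1909 CPM in HZ and 1752 and 1718 CPM in KO. Stimulated libraries had 1489 and 1467 CPM in WT, 1427 and 1387 CPM in HZ and 1490.2 and 1501 CPM in KO. Every stimulated library lay below every unstimulated one, whatever the genotype label. *Ms4a2* fell by 0.14 on the log2 scale in WT cells (SE 0.02, edgeR adjusted p = 2.69e-06), by 0.45 in HZ cells (SE 0.02, edgeR adjusted p = 5.07e-22) and by 0.21 in KO cells (SE 0.02, edgeR adjusted p = 7.71e-11). On library totals the same differences were -0.45, -0.68 and -0.50.

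*Fcer1g*, the gamma chain, which also serves other Fc receptors, was at 313 and 309 CPM in unstimulated WT libraries, 309.8 and 336 CPM in HZ and 359.8 and 381 CPM in KO. After stimulation it was at 359 and 361 CPM in WT, 374 and 395 CPM in HZ and 379 and 386 CPM in KO. The stimulated libraries of WT and HZ lay above their unstimulated ones, while those of KO overlapped with them. Relative to the median gene, *Fcer1g* rose by 0.21 in WT (SE 0.03, edgeR adjusted p = 1.34e-06) and by 0.25 in HZ (SE 0.03, edgeR adjusted p = 1.6e-08), with -0.10 and 0.02 on library totals. Its change of 0.05 in KO cells did not pass (SE 0.03, edgeR adjusted p = 0.305), and on library totals it was -0.24.

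**Figure D3:**
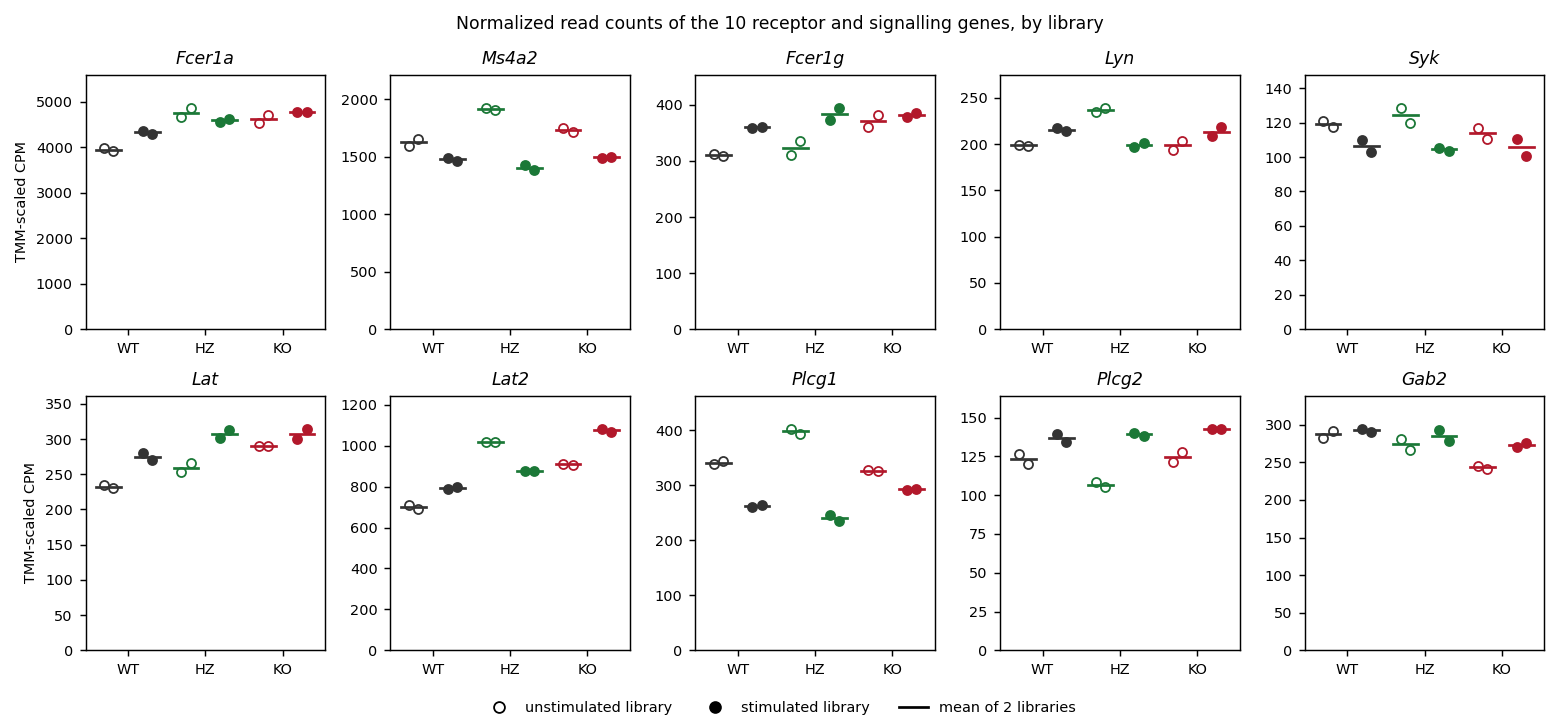
TMM-scaled CPM of each of the 10 genes in each library, by genotype label, with open points for unstimulated and filled points for stimulated libraries and a line at the mean of each pair. *Ms4a2*, *Syk* and *Plcg1* are lower in every stimulated pair, though the change of *Syk* in KO did not pass. *Lat2* runs from 690.2 and 709.6 CPM in unstimulated WT to 1068 and 1082 CPM in stimulated KO.

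Of the kinases, *Lyn*, the Src family kinase that starts the cascade and also feeds inhibitory signals, was at 199 and 198 CPM in unstimulated WT libraries, 234 and 239 CPM in HZ and 193 and 204 CPM in KO. In stimulated cells the values were 217 and 214 CPM in WT, 196 and 201 CPM in HZ and 208 and 219 CPM in KO. The unstimulated HZ libraries were the highest of all 12, and the stimulated HZ libraries lay at the level of unstimulated WT. Relative to the median gene, *Lyn* rose by 0.12 in WT (SE 0.04, edgeR adjusted p = 0.00669) and by 0.10 in KO (SE 0.04, edgeR adjusted p = 0.0171), with -0.19 and -0.18 on library totals, and fell by 0.25 in HZ (SE 0.04, edgeR adjusted p = 3.69e-08). The call in WT was lost without stimulated WT replicate 1 (adjusted p = 0.0509), and that in KO without unstimulated KO replicate 1 (adjusted p = 0.276) or stimulated KO replicate 2 (adjusted p = 0.283).

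*Syk* was at 121 and 117 CPM in unstimulated WT libraries, 129 and 119.9 CPM in HZ and 117 and 111 CPM in KO. Stimulated libraries had 109.7 and 103 CPM in WT, 105 and 104 CPM in HZ and 111 and 101 CPM in KO. It was lower in the stimulated libraries of each genotype, by 0.16 on the log2 scale in WT (SE 0.05, edgeR adjusted p = 0.00414) and by 0.25 in HZ (SE 0.05, edgeR adjusted p = 1.08e-05). In KO the difference of -0.11 did not pass (SE 0.05, edgeR adjusted p = 0.0681). It passed with only the groups compared (adjusted p = 0.0493), and without stimulated KO replicate 1 (adjusted p = 0.0159), unstimulated KO replicate 2 (0.042), unstimulated HZ replicate 2 (0.0381) or unstimulated WT replicate 2 (0.0477). The call in WT was lost without stimulated WT replicate 2 (adjusted p = 0.107). On library totals *Syk* fell by 0.47, 0.48 and 0.40 in WT, HZ and KO.

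Of the adaptors, *Lat*, the scaffold on which SYK substrates assemble, was at 234 and 230.3 CPM in unstimulated WT libraries, 253 and 266 CPM in HZ and 289.8 and 290.4 CPM in KO. In stimulated cells it was at 280.1 and 269.9 CPM in WT, 301 and 313 CPM in HZ and 299.6 and 314 CPM in KO. The unstimulated groups stood apart in the order WT, HZ and KO, and after stimulation HZ and KO shared one level above WT. *Lat* rose relative to the median gene by 0.24 in WT (SE 0.03, edgeR adjusted p = 7.72e-08) and by 0.24 in HZ (SE 0.03, edgeR adjusted p = 2.78e-08), with -0.07 and 0.01 on library totals. In KO its 0.08 was at the edge of the threshold (edgeR adjusted p = 0.0498), it turned to -0.21 on library totals, and leaving out any of 10 of the 12 libraries took it past that edge, with the highest adjusted p, 0.465, without stimulated KO replicate 2 and exceptions for unstimulated HZ replicate 1 and stimulated KO replicate 1.

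*Lat2*, a relative of *Lat* that can both support and restrain the signal, was at 709.6 and 690.2 CPM in unstimulated WT libraries, 1019 and 1016 CPM in HZ and 911 and 905 CPM in KO. In stimulated cells the values were 787 and 799 CPM in WT, 874 and 878 CPM in HZ and 1082 and 1068 CPM in KO. All libraries labelled HZ or KO were above those labelled WT, and replicates differed by far less than groups. Relative to the median gene it rose by 0.18 in WT (SE 0.03, edgeR adjusted p = 4.72e-08) and by 0.24 in KO (SE 0.02, edgeR adjusted p = 1.59e-11), with -0.13 and -0.05 on library totals, and it fell by 0.22 in HZ (SE 0.02, edgeR adjusted p = 1.76e-10).

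*Gab2*, the docking protein that brings phosphatidylinositol 3-kinase to the receptor, was at 283 and 292 CPM in unstimulated WT libraries, 282 and 266 CPM in HZ and 245 and 242 CPM in KO. In stimulated cells it was at 295 and 291 CPM in WT, 293 and 278 CPM in HZ and 270.2 and 275 CPM in KO. The unstimulated KO libraries were the lowest of the 12. On stimulation its change passed in KO, by 0.16 relative to the median gene (SE 0.03, edgeR adjusted p = 0.00011), and not in WT (0.02, edgeR adjusted p = 0.591) or HZ (0.06, edgeR adjusted p = 0.121). On library totals the picture turned, with *Gab2* lower in all 3 genotypes, by -0.28 in WT (adjusted p = 1.18e-09), -0.17 in HZ (adjusted p = 2.61e-05) and -0.12 in KO (adjusted p = 0.00169). Without unstimulated HZ replicate 1 or stimulated HZ replicate 2 the change in HZ passed (adjusted p = 0.023 and 0.0343).

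Of the phospholipases, *Plcg1* was at 338 and 343 CPM in unstimulated WT libraries, 402 and 394 CPM in HZ and 327 and 325 CPM in KO. Stimulated libraries had 261 and 263 CPM in WT, 245 and 235 CPM in HZ and both KO libraries were at 292 CPM. All 6 stimulated libraries lay below all unstimulated ones. *Plcg1* fell by 0.38 on the log2 scale in WT (SE 0.03, edgeR adjusted p = 3.35e-14), by 0.73 in HZ (SE 0.03, edgeR adjusted p = 5.82e-25), the largest change among the 10 genes on stimulation, and by 0.16 in KO (SE 0.03, edgeR adjusted p = 4.54e-05). On library totals it fell by 0.69, 0.96 and 0.45.

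*Plcg2*, which does the same work as *Plcg1* and is the main form in B cells, was at 127 and 120.2 CPM in unstimulated WT libraries, 109 and 105 CPM in HZ and 121 and 128 CPM in KO. In stimulated cells the values were 139 and 135 CPM in WT, 139.8 and 138 CPM in HZ and both KO libraries were at 143 CPM. The unstimulated HZ libraries were the lowest, and the stimulated groups lay close together. *Plcg2* rose relative to the median gene by 0.15 in WT (SE 0.04, edgeR adjusted p = 0.00316) and by 0.20 in KO (SE 0.04, edgeR adjusted p = 0.000139), with -0.16 and -0.09 on library totals. In HZ it rose by 0.38 (SE 0.04, edgeR adjusted p = 8.11e-11), with 0.15 on library totals. The call in WT was lost without unstimulated WT replicate 2 (adjusted p = 0.0528) or stimulated WT replicate 1 (adjusted p = 0.0543).

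Between genotypes, unstimulated KO BMMCs had more RNA of the alpha and gamma chains and of both LAT adaptors than unstimulated WT BMMCs, and less of *Gab2*. For the protein, the study's flow cytometry found surface FcϵRI to be comparable on WT and KO BMMCs. Of the 10 genes, 5 were higher and 1 lower (5 and 2 on library totals or with DESeq2's size factors), against 44.6% of all genes that differed (22.9% higher and 21.7% lower). *Lat2* was higher by a log2 fold change of 0.38 (SE 0.02, edgeR adjusted p = 1.42e-17), *Lat* by 0.32 (SE 0.03, edgeR adjusted p = 5.82e-11), *Fcer1g* by 0.25 (SE 0.03, edgeR adjusted p = 2.64e-08) and *Fcer1a* by 0.23 (SE 0.02, edgeR adjusted p = 2.4e-13). *Ms4a2* was higher by 0.09 (SE 0.02, edgeR adjusted p = 0.000726), and *Gab2* was lower by a log2 difference of -0.24 (SE 0.03, edgeR adjusted p = 7.71e-08). *Plcg1*, at -0.06, did not pass (edgeR adjusted p = 0.105), but passed on library totals at -0.08 and with DESeq2 at -0.07. For *Lyn*, *Syk* and *Plcg2* the 95% confidence intervals of the difference were -0.07 to 0.07, -0.16 to 0.03 and -0.07 to 0.10. None of the 10 genes reached a fold change of 1.5 or 0.66, the threshold used here between genotypes, which 12.7% of all genes did. The study used this threshold for stimulated KO cells, and a 2-fold threshold for unstimulated KO cells. The median size of the difference was 0.162 over the 10 genes and 0.212 over all. In bulk RNA, fewer cells of a type and less RNA per cell cannot be told apart. Of the mast cell markers, 4 of 10 were higher and 4 lower in this comparison, and the monocyte and macrophage list summed to 106 to 111 CPM in KO against 169.96 to 170.2 CPM in WT, with *Mrc1* at 0 in both. Within that list 1 of 8 tested genes was higher and 1 lower. Its most abundant gene, *Cx3cr1*, had a mean of 49.5 CPM in KO and 119.9 CPM in WT. The part of these markers in the result was not tested.

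Unstimulated HZ BMMCs were compared with unstimulated WT BMMCs in the same way. Here 6 were higher and 1 lower (6 and 2 on library totals), against 51.4% of all genes (25.4% higher and 26% lower), and 16.7% of all genes passed the fold threshold as well where none of the 10 did. *Lat2* was higher by 0.54 (SE 0.02, edgeR adjusted p = 1.38e-23), the largest genotype difference in the set and just under the 1.5-fold threshold at a fold change of 1.45, with an interval that runs from 0.49 to 0.59. *Fcer1a* was higher by 0.27 (SE 0.02, edgeR adjusted p = 6.67e-16), *Lyn* by 0.25 (SE 0.04, edgeR adjusted p = 5.54e-08), *Ms4a2* by 0.24 (SE 0.02, edgeR adjusted p = 2.22e-12), *Plcg1* by 0.22 (SE 0.03, edgeR adjusted p = 3.11e-08) and *Lat* by 0.16 (SE 0.03, edgeR adjusted p = 0.000118). *Plcg2* was lower, at -0.21 (SE 0.04, edgeR adjusted p = 5.08e-05). *Fcer1g* at 0.05 (edgeR adjusted p = 0.188) and *Gab2* at -0.07 (edgeR adjusted p = 0.0805) did not pass, though both did without unstimulated HZ replicate 1 (adjusted p = 0.0124 and 0.0177). *Gab2* also passed on library totals, at -0.12 (adjusted p = 0.00302). Mast cell markers moved too: 7 of 10 were higher and 1 lower in unstimulated HZ than in WT, and their sum was 58868 to 60027 CPM against 48688 to 49598 CPM. Other lists moved as well, with the monocyte and macrophage sum at 102 to 103 CPM in HZ against 169.96 to 170.2 CPM in WT, the erythroid and megakaryocyte sum at 2414 to 2421 against 1696 to 1739 CPM, the basophil sum at 673 to 674 against 596 to 601 CPM, and the dendritic cell sum at 1.33 to 1.35 against 5.63 to 7.61 CPM. Within the monocyte and macrophage list 2 of 8 tested genes were higher and 3 lower, and *Cx3cr1* had a mean of 62.3 CPM in HZ and 119.9 CPM in WT. The part of these markers in the members' differences was not tested.

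KO and HZ were then set against each other. In unstimulated cells, 3 of the 10 genes were higher in KO and 6 lower, against 45.2% of all genes (23.4% higher and 21.8% lower, and 9.6% past the fold threshold, which none of the 10 reached). The numbers higher and lower were 3 and 5 on library totals, and 3 and 7 with DESeq2's size factors. *Fcer1g* at 0.20, *Lat* at 0.16 and *Plcg2* at 0.22 were higher in KO. *Plcg1* at -0.29, *Lyn* at -0.25, *Gab2* at -0.17, *Lat2* at -0.16, *Ms4a2* at -0.14 and *Syk* at -0.13 were lower, with edgeR adjusted p-values from 1.01e-10 to 0.0246. The order of the means was WT, HZ, KO for *Fcer1g* and *Lat* and the reverse for *Gab2*. For the other 7 genes HZ did not lie between WT and KO: it had the highest mean for *Fcer1a*, *Ms4a2*, *Lyn*, *Syk*, *Lat2* and *Plcg1* and the lowest for *Plcg2*. *Fcer1a* did not differ between KO and HZ beyond the threshold (-0.04, edgeR adjusted p = 0.0897), but passed with DESeq2's size factors, as all 10 genes did.

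**Figure D4:**
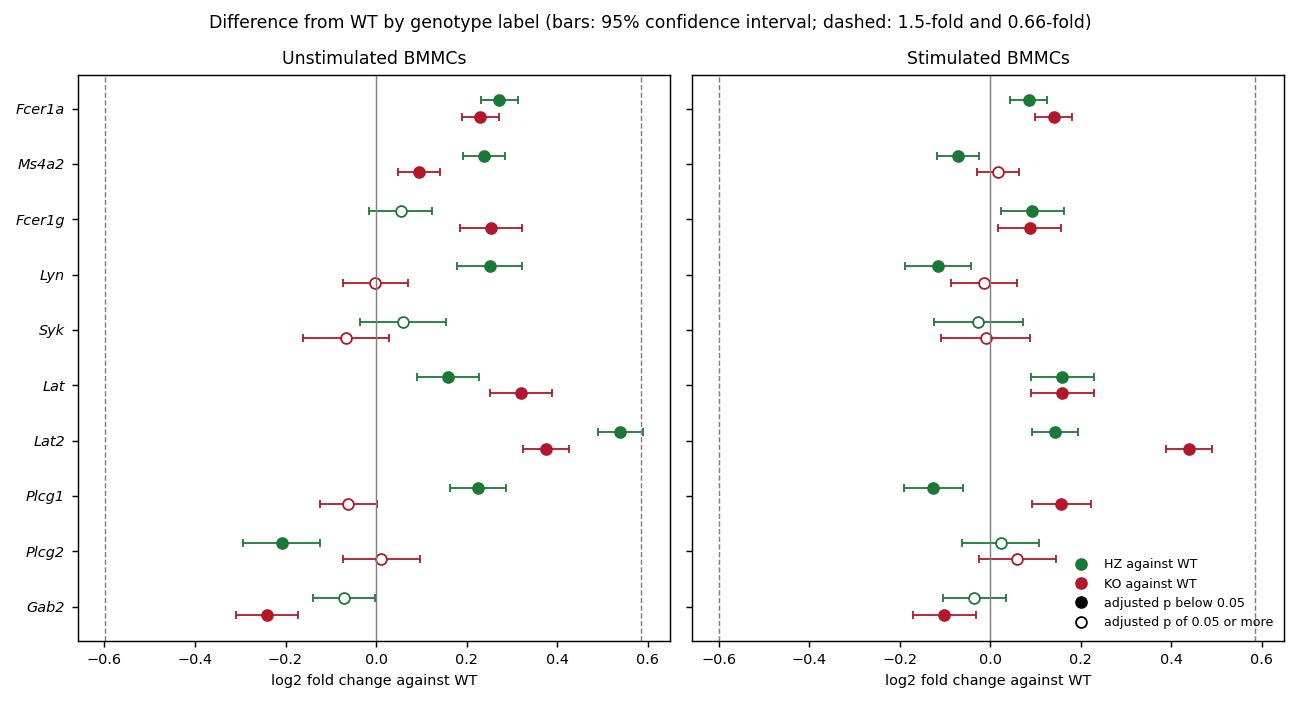
Log2 fold change of each gene in HZ (green) and KO (red) against WT, in unstimulated BMMCs on the left and stimulated BMMCs on the right, with 95% confidence intervals as bars, filled points at an adjusted p below 0.05, and dashed lines at the 1.5-fold and 0.66-fold thresholds. *Lat2* in unstimulated HZ cells reaches 0.54, and no point lies beyond the dashed lines.

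Among stimulated cells, *Lat2* again had the largest difference from WT in KO, while in HZ its difference was 0.14 where unstimulated cells had 0.54. In stimulated KO BMMCs, 5 genes were higher and 1 lower than in stimulated WT, against 40.4% of all genes (21.2% higher and 19.2% lower). None of the 10 passed the fold threshold, against 12.7% of all genes. *Lat2* was higher by 0.44 (SE 0.03, edgeR adjusted p = 6.76e-20), *Lat* by 0.16 (SE 0.03, edgeR adjusted p = 0.000169), *Plcg1* by 0.16 (SE 0.03, edgeR adjusted p = 7.81e-05) and *Fcer1a* by 0.14 (SE 0.02, edgeR adjusted p = 1.68e-07). *Fcer1g* at 0.09 (edgeR adjusted p = 0.0397) was close to the threshold. The call was lost with DESeq2 (adjusted p = 0.141), DESeq2's size factors (0.0907), at least 10 counts in every library (0.0503) or limma on FPKM (0.0935). It was also lost without any of 6 libraries, with the adjusted p highest, 0.210, without stimulated KO replicate 2 and next highest, 0.155, without stimulated WT replicate 1. *Gab2* was lower, at -0.10 (edgeR adjusted p = 0.0159), and the call was lost without stimulated WT replicate 1 (adjusted p = 0.0976) or stimulated KO replicate 1 (adjusted p = 0.137). *Ms4a2*, *Lyn*, *Syk* and *Plcg2* did not pass, with 95% intervals of -0.03 to 0.06, -0.09 to 0.06, -0.11 to 0.09 and -0.03 to 0.14. Of the mast cell markers, 3 of 10 were higher and 6 lower in this comparison, and the monocyte and macrophage sum was 102 to 113 CPM in KO against 139 to 143 CPM in WT. Within that list 2 of 8 tested genes were higher and 1 lower, and *Cx3cr1* had a mean of 35.2 CPM in KO and 76.7 CPM in WT. The part of these markers in the result was not tested.

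In stimulated HZ BMMCs, 4 genes were higher than in stimulated WT and 3 lower (4 and 2 on library totals), against 34.9% of all genes (18.4% higher and 16.5% lower). None of the 10 passed the fold threshold, against 7.89% of all genes. *Lat* was higher by 0.16 (SE 0.03, edgeR adjusted p = 0.00021), *Lat2* by 0.14 (SE 0.03, edgeR adjusted p = 8.22e-06), *Fcer1a* by 0.09 (SE 0.02, edgeR adjusted p = 0.000841) and *Fcer1g* by 0.09 (SE 0.03, edgeR adjusted p = 0.0306). *Plcg1* at -0.13, *Lyn* at -0.12 and *Ms4a2* at -0.07 were lower (edgeR adjusted p = 0.00171, 0.00945 and 0.0135), where the unstimulated HZ cells had more of each. Only 4 of the 10 genes passed without stimulated WT replicate 1 or without stimulated HZ replicate 2. Without stimulated HZ replicate 2, *Fcer1g* (adjusted p = 0.361), *Ms4a2* (0.211) and *Plcg1* (0.0761) were lost. Without stimulated WT replicate 1, *Fcer1g* (adjusted p = 0.130), *Ms4a2* (0.129) and *Lyn* (0.075) were lost. *Lyn* was also lost without stimulated HZ replicate 1 (adjusted p = 0.11), and *Fcer1g* without unstimulated WT replicate 2 (0.0736) or stimulated WT replicate 2 (0.0768). With all libraries kept, *Fcer1g* was lost with DESeq2 (adjusted p = 0.163), DESeq2's size factors (0.106), at least 10 counts in every library (0.0506) or only the groups compared (0.0651). Mast cell markers were here higher in 2 and lower in 6 of 10. Between stimulated KO and HZ cells, 5 genes were higher in KO and 0 lower (2 and 1 on library totals), against 24.9% of all genes (12.9% higher and 12% lower, and 5.32% past the fold threshold, which none of the 10 reached), led by *Lat2* at 0.30 and *Plcg1* at 0.28 (edgeR adjusted p = 1.89e-13 and 9.96e-10).

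Whether the response to stimulation itself differed with the genotype label was tested as an interaction. Between HZ and WT it did for 6 of 10 genes, 1 more positive and 5 more negative in HZ, against 38.5% of all genes (19.9% more positive and 18.6% more negative), with 0 of the 10 and 5.99% of all genes past the fold threshold. The response was more negative in HZ for *Lat2* by -0.40 (SE 0.04, edgeR adjusted p = 4e-13), *Lyn* by -0.37 (SE 0.05, edgeR adjusted p = 5.3e-08), *Plcg1* by -0.35 (SE 0.04, edgeR adjusted p = 8.6e-09), *Ms4a2* by -0.31 (SE 0.03, edgeR adjusted p = 6.17e-11) and *Fcer1a* by -0.19 (SE 0.03, edgeR adjusted p = 5.95e-07). It was more positive for *Plcg2*, by 0.23 (SE 0.06, edgeR adjusted p = 0.00155). Each of these 6 calls held without every single library. This comparison shares its unstimulated HZ and WT libraries with that of the unstimulated genotypes. Mast cell markers moved the same way here, with 0 of 10 more positive and 9 more negative, and the part of this in the members' responses was not tested.

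Between KO and WT, the response differed in 4 of 10 genes, 1 more positive and 3 more negative in KO (2 and 1 on library totals), against 9.27% of all genes (5.44% more positive and 3.83% more negative), with 0 of the 10 and 0.704% of all genes past the fold threshold. *Plcg1* fell less in KO, by a difference of 0.22 (SE 0.04, edgeR adjusted p = 0.000527), and this call held without every single library. *Fcer1g* by -0.17 (SE 0.05, edgeR adjusted p = 0.0209), *Lat* by -0.16 (SE 0.05, edgeR adjusted p = 0.025) and *Fcer1a* by -0.09 (SE 0.03, edgeR adjusted p = 0.0386) had a less positive response in KO relative to the median gene. On library totals all 3 fell in both genotypes, and fell further in KO, by -0.24 against -0.10 for *Fcer1g*, -0.21 against -0.07 for *Lat* and -0.24 against -0.17 for *Fcer1a*. The interaction passed there as more negative for only 1 of the 10 genes, so not all 3 calls held on library totals. These 3 calls were lost in limma on TMM-scaled FPKM (adjusted p = 0.105, 0.0734 and 0.166) and without single libraries, *Fcer1a* without stimulated WT replicate 1 (adjusted p = 0.142), either stimulated KO replicate (0.0965 and 0.119) or unstimulated KO replicate 2 (0.292), and *Fcer1g* without stimulated WT replicate 2 (0.075), stimulated KO replicate 1 (0.102) or unstimulated KO replicate 2 (0.191). *Lat* was lost without stimulated WT replicate 1 (adjusted p = 0.138), unstimulated WT replicate 2 (0.0503), either unstimulated KO replicate (0.056 and 0.0761) or stimulated KO replicate 1 (0.196). The count of genes was 1 without unstimulated KO replicate 2 or stimulated KO replicate 1, and 2 without stimulated WT replicate 1. *Gab2*, at 0.14, did not pass (edgeR adjusted p = 0.0615), and did on library totals (adjusted p = 0.0301), with no filter on low counts (0.0499), with only the groups compared (0.0430) or without unstimulated HZ replicate 1 (0.0406). *Ms4a2*, at -0.08 (edgeR adjusted p = 0.145), passed without unstimulated WT replicate 2 (adjusted p = 0.0226) or unstimulated HZ replicate 2 (0.0283). This comparison shares its unstimulated KO and WT libraries with that of the unstimulated genotypes, where *Fcer1g*, *Lat* and *Fcer1a* were higher in KO. Of the mast cell markers, 2 of 10 had a more positive response in KO and 4 a more negative one. The part of these markers in the members' responses was not tested.

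Other genes of the same cascade are given from lists. KEGG's Fc epsilon RI pathway, as the deposited table annotates it, holds 9 of the 10 genes (all but *Lat2*) and 50 further genes that were tested. In WT cells 23 of these 50 rose on stimulation relative to the median gene and 4 fell (9 and 27 on library totals), with a median log2 change of 0.12 against 0.13 over the 10 genes and -0.01 over all genes. Among all 12208 genes tested, 22.4% were higher and 22.9% lower in this comparison, and on library totals 842 genes were higher and 7397 lower, which is the background for each list that follows. Of 9 other Src and Tec family kinases and their controls, 4 rose and 2 fell (1 and 6 on library totals). *Tec*, a kinase that acts on phospholipase C gamma, rose by 0.54 (SE 0.08, edgeR adjusted p = 5.56e-07) and *Src*, the founding member of the Src family, fell by 0.56 (SE 0.13, edgeR adjusted p = 0.000343). Of 13 adaptors and exchange factors, 3 rose and 6 fell (1 and 10 on library totals). *Lcp2*, the adaptor SLP-76 that joins LAT to phospholipase C gamma, rose by 0.67 (SE 0.03, edgeR adjusted p = 1.48e-26), and *Sh3bp2*, an adaptor that binds SYK and phospholipase C gamma, fell by 0.49 (SE 0.11, edgeR adjusted p = 0.000183).

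Of 19 genes of lipid and calcium second messengers, 7 rose and 5 fell in WT (2 and 13 on library totals), against 22.4% higher and 22.9% lower of all genes. *Sphk1*, which makes sphingosine 1-phosphate, went from 3 counts in both unstimulated WT libraries together to 272 after stimulation, a ratio of 104 with a 95% counting interval of 35.2 to 507. It rose in HZ as well, from 6 to 143 counts, and in KO from 3 to 299. *Pik3ca*, a catalytic subunit of phosphatidylinositol 3-kinase, rose by 0.54 (SE 0.05, edgeR adjusted p = 8.01e-12). Of 12 negative regulators of the receptor, 7 rose and 1 fell (4 and 7 on library totals), against the same shares of all genes and, on library totals, 842 genes higher and 7397 lower of 12208. The phosphatase *Ptpn22* rose by 1.93 (SE 0.09, edgeR adjusted p = 2.89e-24) and *Rabgef1*, which restrains FcϵRI signalling through its internalisation, by 1.68 (SE 0.04, edgeR adjusted p = 6.47e-38), both past 2-fold. The directions of *Tec*, *Src*, *Lcp2*, *Sh3bp2*, *Sphk1*, *Pik3ca*, *Ptpn22* and *Rabgef1* were the same on library totals.

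Between unstimulated KO and WT cells, 14 of the 50 further pathway genes were higher and 13 lower (12 and 15 on library totals), with a median of -0.02, against 22.9% higher and 21.7% lower of all genes. The counts of the lists below stand against these same shares. *Fyn*, the Src family kinase that acts with GAB2 beside LYN, was lower in KO, at -0.85 (SE 0.07, edgeR adjusted p = 1.71e-15). The kinase list as a whole had 5 higher and 3 lower of 9, the adaptor list 4 higher and 5 lower of 13 (3 and 6 on library totals), the lipid and calcium list 3 higher and 8 lower of 19, and the negative regulators 3 higher and 2 lower of 12. *Rasgrp1*, a Ras exchange factor, was lower at -0.94 and *Pik3cb*, a catalytic subunit of phosphatidylinositol 3-kinase, at -1.07, while *Sh3bp2* at 0.65, the calcium channel *Orai1* at 0.70, the inhibitory adaptor *Dok2* at 0.68 and the phosphatase *Ptpn6*, also called SHP-1, at 0.40 were higher (edgeR adjusted p-values from 1.58e-13 to 1.57e-06).

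Over the 12 libraries, the genes most like each receptor chain in log2(CPM + 0.5) were different for each. For *Fcer1a* they were *Ube2e1* (Pearson's r = 0.976), *Rpl39* (0.972) and *Ccl9* (0.972), for *Ms4a2* they were *Atg12* (0.991), *Ddx6* (0.991) and *Cyth3* (0.985), and for *Fcer1g* they were *Rab6a* (0.973), *Psmb5* (0.970) and *Isoc2a* (0.970). Among the 10 genes themselves, the highest values were 0.952 for *Fcer1g* with *Lat*, 0.946 for *Ms4a2* with *Plcg1* and 0.931 for *Fcer1a* with *Lat2*, while the chains with each other gave 0.588 for *Fcer1a* with *Fcer1g*, 0.140 for *Fcer1a* with *Ms4a2* and -0.61 for *Ms4a2* with *Fcer1g*. These values describe 12 libraries that fall into 6 groups and share their scaling.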

How the data were processed

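RNA-seq was run on 12 libraries of mouse BMMCs in 6 groups of 2. The deposited files hold raw counts per gene and FPKM values that the authors made from them. Per the labels and the submitters' processing notes, reads were trimmed with fastp, aligned to GRCm39 with HISAT2 and counted with HTSeq, with versions not given in the sources used here. No column was left unused as belonging to another sample (0 such columns). How multi-mapped or stranded reads were treated is not given in the sources used here.

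The counts were tested with edgeR 4.0.16 (estimateDisp, glmQLFit, glmQLFTest) in R 4.3.3, with TMM factors, 1 mean per group and Benjamini-Hochberg adjustment over 12208 of 16234 genes kept by filterByExpr. A call is an adjusted p below 0.05. The standard error is the log2 fold change divided by the root of the F statistic. The common dispersion was 0.00161 (a coefficient of variation of 4.01%), with 6 residual degrees of freedom. Differences in response are interaction terms. Alternatives used DESeq2 1.42.0, limma 3.58.1 on log2(FPKM + 1) or log2(FPKM + 0.1), other scalings and filters, and each library left out. The methods were tested on simulated data. Depths ran from 29697958 to 35531667 counts, and counting intervals cover counting error only. The 10 genes and the gene lists were chosen with earlier results of these data known, and the pathway genes named are the 2 with the largest absolute log2 fold change among those past the threshold in each list, in stimulated against unstimulated WT and in unstimulated KO against WT. One gene that this rule selects is not reported here. The 3 genes most correlated with each receptor chain and the most abundant gene of each marker list, with genes at 0, are named as well. *Mrc1* was chosen after its values were seen. The comparison of KO with HZ was added after the data were seen.

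Replicates 1 and 2 of the same number were checked for pairing. The correlation of their deviations from the group means ran from -0.05 to 0.07 in 15 pairs of groups over 9858 genes, and 0 were over 0.1, so no pairing was used.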

Additional observations from a re-analysis of the deposited data

Results flagged for a closer look

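The response to stimulation differed between genotype labels by the interaction test of edgeR (adjusted p below 0.05) for 4 of the 10 genes in KO against WT and 6 in HZ against WT. The log2 response in KO minus that in WT was -0.0900 for *Fcer1a*, -0.17 for *Fcer1g*, -0.16 for *Lat* and 0.22 for *Plcg1*. The log2 response in HZ minus that in WT was -0.19 for *Fcer1a*, -0.31 for *Ms4a2*, -0.37 for *Lyn*, -0.40 for *Lat2*, -0.35 for *Plcg1* and 0.23 for *Plcg2*. With 2 libraries per group, single libraries that stand far from the rest could not be tested for.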

How the results depend on the processing

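Each result was recomputed under the alternatives named above. Of 61 calls in 9 comparisons, 46 held without every single library and 15 were lost without at least 1, and 0 called genes changed sign when a library was left out. With single libraries left out, the number of genes called ran from 7 to 9 (WT), 8 to 10 (HZ) and 5 to 8 (KO) on stimulation, was 6 throughout for unstimulated KO and ran from 7 to 9 for unstimulated HZ, from 4 to 6 for stimulated KO and from 4 to 7 for stimulated HZ against WT, and was 1 to 5 for the response in KO and 6 throughout for that in HZ. With a fold threshold added, of 2 on stimulation and for the response and of 1.5 or 0.66 between genotypes, the number was 0 in all 9 comparisons. The adjusted p alone gave 4 to 9. The response in KO gave 1 gene instead of 4 at an adjusted p below 0.01 and in limma on FPKM with either pseudocount, with no filter, or scaled by TMM. Stimulated HZ against WT gave 4 instead of 7 in limma with no filter. The cause was not tested.

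Scaling by library totals, and limma on deposited FPKM, turned the sign of the same 19 results. On stimulation of WT cells, library totals gave -0.17 for *Fcer1a*, -0.0959 for *Fcer1g*, -0.19 for *Lyn*, -0.0651 for *Lat*, -0.13 for *Lat2*, -0.16 for *Plcg2* and -0.28 for *Gab2*, in HZ cells -0.17 for *Gab2*, and in KO cells -0.24 for *Fcer1a*, -0.24 for *Fcer1g*, -0.18 for *Lyn*, -0.21 for *Lat*, -0.0455 for *Lat2*, -0.0917 for *Plcg2* and -0.12 for *Gab2*. Limma on log2(FPKM + 1), with or without the filter, gave for these genes in the same order -0.17, -0.0957, -0.19, -0.0650, -0.13, -0.15 and -0.28 in WT, -0.17 in HZ, and -0.24, -0.24, -0.18, -0.21, -0.0453, -0.0886 and -0.12 in KO. With a pseudocount of 0.1 it gave -0.17, -0.0959, -0.19, -0.0653, -0.13, -0.16 and -0.28 in WT, -0.17 in HZ, and -0.24, -0.24, -0.18, -0.21, -0.0455, -0.0912 and -0.12 in KO. The other 4 of the 19 were differences near 0 that had not passed. *Plcg2* between unstimulated KO and WT was -0.0107 on library totals, -0.0103 and -0.0106 in limma with pseudocounts of 1 and 0.1, -0.00120 with DESeq2 or its size factors and -0.00131 with only the groups compared. *Syk* between stimulated HZ and WT was 0.000101 on library totals and 0.000441 and 0.000545 in limma. The response of *Lyn* in KO minus WT was 0.00726 on library totals and 0.00689 and 0.00698 in limma. The response of *Lat* in HZ minus WT was 0.0764 on library totals, 0.0764 and 0.0769 in limma, 0.00146 with no filter, 0.000416 with the replicate block within genotype and 0.000553 in limma on TMM-scaled FPKM.

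Leaving out a library turned the sign of 13 differences, none of which had passed. Their ranges were -0.0382 to 0.0374 for *Lyn* and -0.0240 to 0.0512 for *Plcg2* between unstimulated KO and WT, and -0.0107 to 0.11 for *Fcer1g* between unstimulated HZ and WT. They were -0.00174 to 0.0268 for *Ms4a2*, -0.0499 to 0.0228 for *Lyn* and -0.0777 to 0.0566 for *Syk* between stimulated KO and WT, and -0.0693 to 0.0211 for *Syk* and -0.0726 to 0.00501 for *Gab2* between stimulated HZ and WT. For the response they were -0.0501 to 0.0253 for *Lyn* and -0.0125 to 0.12 for *Syk* in KO, and -0.0186 to 0.0890 for *Fcer1g*, -0.0356 to 0.0291 for *Lat* and -0.0133 to 0.0776 for *Gab2* in HZ.

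The groups share replicate numbers, with no statement in the labels of what the numbers mean, and same-numbered libraries did not deviate together. With the replicate block, 9 genes were called on stimulation in WT, 9 in HZ and 9 in KO (7 without it, with *Fcer1a* and *Syk* gained at edgeR adjusted p = 0.0499 and 0.0413), 6 and 7 for unstimulated KO and HZ, 6 and 7 for stimulated KO and HZ, and 5 (4 without it, with *Gab2* gained at 0.0465) and 6 for the response in KO and HZ. With 2 libraries per group, differences within the intervals given were not detectable at this depth and replication.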
